A study of Mus musculus with 12 samples.

Results

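The comparison described here was that of p21+/TertCi tumors with tumor-free liver tissue of the animals that bore them. It took every library labelled with the genotype p21TertCi, which gave 2 tumors, a carcinoma from mouse L981 (TCi-HCC981) and an adenoma from mouse L984 (TCi-HCA984), and the 2 livers of these mice, 4 of the 12 libraries of the series. The other 8 libraries, 4 tumors and 4 livers of p21+/Tert mice, entered the model so that the spread between samples could be estimated from all groups. All mice were fed the Standard Diet and were more than 18 months old. The wild-type mice of the study were C57BL/6J N, and no separate background was given for the transgenic mice. In p21+/TertCi mice the promoter of 1 allele of p21 (Cdkn1a) drives a form of telomerase reverse transcriptase (Tert) without catalytic activity. The controls carried the same allele as the tumors, since they were livers of the same animals. In p21+/Tert mice the same promoter drives wild-type Tert. The p21 promoter is active wherever p21 is induced and is not specific for hepatocytes. The mice kept an intact endogenous Tert locus, whose copy number in the tumors was not analysed here, and reads of the endogenous gene and of the engineered allele cannot be told apart. The study classified TCi-HCC981 as a hepatocellular carcinoma with an activating Hras mutation and an Rnf43 mutation, and TCi-HCA984 as a hepatocellular adenoma with an Ep300 mutation and without the Hras mutation. The 2 tumors thus differed in histology and in mutations, and every comparison over both of them is one between 2 tumors of different kinds and 2 livers.

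In the adult liver, hepatocytes divide the work along the lobule. Wnt and β-catenin signaling near the central vein maintains genes of glutamine synthesis and xenobiotic metabolism (pericentral genes), and hepatocytes near the portal vein carry out urea synthesis and gluconeogenesis (periportal genes). Activated RAS signals through the kinases RAF, MEK and ERK, and ERK induces its own inhibitors, the Dusp phosphatases and the Sprouty and Spred proteins, whose transcripts are widely used as readouts of the pathway. The transcription factor Nrf2 induces genes of glutathione synthesis and detoxification through antioxidant response elements.

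Poly(A) RNA was measured as read counts per gene. The total count was 22094500 and 23932529 in the TertCi livers, and the tumors had 19131133 (carcinoma) and 18870198 (adenoma). Levels are given as CPM, counts per 1e+06 counted reads after scaling by the trimmed mean of M-values, first for TCi-HCC981 and TCi-HCA984 and then for the livers of mice L981 and L984. The log2 ratio within a mouse is that of tumor CPM + 1 to liver CPM + 1, which understates the change of genes of low level. Of 24421 genes, 15182 passed the filter on low counts. The 4 libraries had at most 0.248 CPM of Xist and between 66.4 and 90.5 CPM of Ddx3y, so tumor and liver of each mouse were alike in these sex-linked genes. The hepatocyte markers summed to 100000 and 88100 CPM in the tumors and to 41600 and 62800 CPM in the livers, and Alb alone, the serum albumin gene, had 61000 and 48100 CPM in the tumors and 16200 and 20400 CPM in the livers. Of the 11 hepatocyte markers tested, 7 had a log2 fold change below 0, with a median of -0.16. In 1 of them both tumors lay above both livers and in 2 below, beside 20.7% and 22.8% of all genes tested.

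The 2 livers were not alike. Kupffer cell markers summed to 1910 CPM in the liver of mouse L981 and to 303 CPM in that of mouse L984, the highest and the lowest of the 6 livers of the series. Markers of recruited macrophages and monocytes summed to 769 and 99.8 CPM and those of T and NK cells to 33.5 and 5.2 CPM, again the highest in the liver of mouse L981. The tumors followed their mice, with 1530 CPM of Kupffer cell markers and 42.5 CPM of T and NK cell markers in TCi-HCC981 against 325 and 7.86 CPM in TCi-HCA984. In bulk tissue fewer cells of a type and less RNA per cell cannot be told apart. The deviations of tumor and liver from their group means were correlated across genes at r = 0.532, necessarily the same value for both mice with 2 samples per group. Between the 2 livers 554 genes differed by at least 4-fold, and between the 2 tumors 648.

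The question was which genes differed between tumor and liver in mice with the inactive enzyme. In edgeR's quasi-likelihood test with Benjamini-Hochberg adjustment no gene passed an adjusted p of 0.05 in either direction (0.0% of 15182). The lowest adjusted p was 0.052, for Mtmr11. At an unadjusted p under 0.05, 974 genes were higher (6.42%) and 644 lower (4.24%). DESeq2 on the same groups called 296 genes higher (1.96% of the 15081 with an adjusted p) and 65 lower (0.431%). Without the p21+/Tert tumors T-HCC662 and T-HCC663, which the study lists as Ctnnb1-mutated and which spread widely, edgeR called 172 genes higher (1.13%) and 14 lower (0.0922%). Against all 6 livers of both genotypes it called 467 higher (3.08%) and 118 lower (0.777%). With the mouse as a block it called none. The genes are therefore described by their levels, and none is said to have changed. In 3144 genes both tumors lay above both livers (20.7%) and in 3461 both lay below (22.8%). By at least 2-fold in each mouse, 666 genes were higher in tumor than in liver (4.39%) and 276 lower (1.82%).

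Tert and Cdkn1a are the genes of the engineered allele. Tert (chromosome 13, 73626911 to 73649843) had 15.7 and 17.1 CPM in the tumors and 11.1 and 12.9 CPM in the livers. The difference was smaller than its error, with a log2 fold change of 0.45 ± 0.62 (SE). The adjusted p was 0.837 in edgeR's quasi-likelihood test with Benjamini-Hochberg adjustment. It was at least 0.628 in the other fits that kept all 4 TertCi libraries. The log2 fold change ran from 0.34 to 0.57 over the other fits, which include those with 1 TertCi library left out. The p21+/Tert livers had between 10.7 and 17.5 CPM of Tert and the p21+/Tert tumors between 4.62 and 26.1 CPM. Cdkn1a had 72.1 and 53.3 CPM in the tumors. The liver of mouse L984 had 52.2 CPM, about as much as its tumor, and that of mouse L981 had 7.22 CPM. The log2 ratio was 3.15 in mouse L981 and 0.03 in mouse L984, and the fitted value of 1.08 ± 1.15 (SE) ran from 0.27 to 3.12 over the other fits. Saa1, an acute phase gene, also differed between the livers, with 587 CPM in mouse L981 and 11700 CPM in mouse L984. Of 24 p53 target genes, a list that includes Cdkn1a, 12 were higher in both tumors than in both livers and 2 lower. All genes gave 20.7% and 22.8%. The median log2 fold change of the list was 0.63 beside -0.03 over all genes tested. Without TCi-HCC981 the median was 0.34. Tnfrsf10b, a death receptor, had 11.5 and 10.8 CPM against 1.06 and 0.892 CPM, and Btg2, an inhibitor of proliferation, had 154 and 228 CPM against 40.9 and 39 CPM. Phlda3, an inhibitor of Akt, had 49.1 CPM in TCi-HCC981, 9.75 CPM in TCi-HCA984, and 3.67 and 2.63 CPM in the livers.

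Mtmr11 (chromosome 3, 96162004 to 96171718, GRCm38), which encodes a myotubularin-related protein, had 51.8 and 59.1 CPM in the tumors and 6.5 and 7.09 CPM in the livers. Mtmr11 was named for its small p among genes whose groups did not overlap, so its separated ranges are no further result. Its log2 fold change was 3.03 ± 0.36 (SE), from 2.93 to 3.12 over the other fits. Its adjusted p was 0.052 in edgeR and 1.01e-11 in DESeq2. In edgeR with the mouse as a block the lowest adjusted p of any gene was 0.0767, and with only the 4 TertCi libraries 0.18. Akr1c18 (chromosome 13, 4132615 to 4150654), an aldo-keto reductase that inactivates progesterone, had 93.6 and 75.9 CPM in the tumors and no read in either liver. Against a floor of 3 counts per liver library it was at least 616-fold higher. Apela, the gene of a peptide ligand of the apelin receptor, had 38.9 and 22.9 CPM in the tumors and likewise no read in the livers, and was at least 225-fold higher against the same floor. Slc39a4, a zinc importer, had 855 and 210 CPM in the tumors against 30.4 and 14.7 CPM in the livers. Its tumors differed from each other by more than the livers did. Casp12, a caspase associated with endoplasmic reticulum stress, had 45.2 and 33.5 CPM against 4.81 and 2.18 CPM. Mmp13, a collagenase, had 36.3 and 4.65 CPM against 1.06 and 0.446 CPM. Entpd2, an ectonucleotidase, had 29.6 and 49.8 CPM against 9.54 and 5.65 CPM. Pdlim7, a scaffold protein of the actin cytoskeleton, had 26.7 and 22.6 CPM against 7.56 and 7.73 CPM. Parts of the Mtmr11, Apela, Entpd2, Pdlim7, Tnfrsf10b and Cdkn1a transcripts have near-identical sequence in, or share exons with, another annotated gene, so reads there are uncertain.

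Gpc3, Cyp2a4 and Cdh1 of the oncofetal, female-biased and periportal lists were each high in both tumors. Gpc3 (chromosome X, 52272426 to 52613950), the fetal proteoglycan glypican-3 that is used as a marker of human hepatocellular carcinoma, had 388 and 247 CPM in the tumors and 1.27 and 0.297 CPM in the livers. It was high in the carcinoma and in the adenoma alike. In the 4 p21+/Tert tumors it lay between 0.0447 and 18 CPM. Its log2 fold change was 8.63 ± 2.04 (SE) with an adjusted p of 0.2 in edgeR and between 0.000465 and 0.753 in the other fits, and the difference between genotypes did not pass the threshold after adjustment. Cyp2a4 (chromosome 7, 26307169 to 26315088), a steroid hydroxylase that male mouse liver expresses at a low level, had 2750 and 2650 CPM in the tumors and 19.2 and 0.743 CPM in the livers. Its transcript is near-identical to that of Cyp2a5, so that the reads of the 2 genes may be mixed. Cdh1 (chromosome 8, 106603351 to 106670246), E-cadherin, had 162 and 152 CPM in the tumors and 11 and 5.55 CPM in the livers, where the other 4 livers of the series had between 9.15 and 47.1 CPM.

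**Figure D1:**
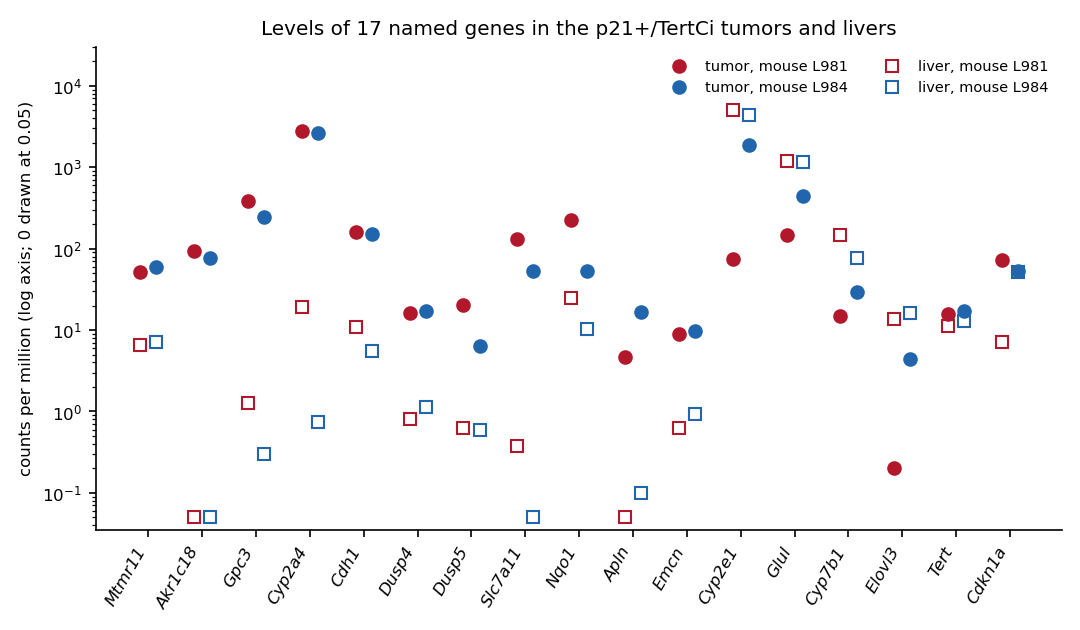
Levels of 17 named genes in CPM on a log axis, with filled circles for the tumors and open squares for the livers, red for mouse L981 and blue for mouse L984; values of 0 are drawn at 0.05. For Mtmr11, Akr1c18, Gpc3 and Cdh1 both tumors lie close together and above both livers, whereas Cyp2e1 and Glul are lowest in TCi-HCC981 and Cdkn1a separates the livers from each other (7.22 and 52.2 CPM).

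The genes that were lower in both tumors with the smallest p differed by smaller steps. Tmem86b, a lysoplasmalogenase, had 23.7 and 54.9 CPM in the tumors and 147 and 185 CPM in the livers. Mif4gd, a regulator of histone mRNA translation, had 42 and 58.4 CPM against 133 and 167 CPM. Hdhd3 had 8.6 and 14.1 CPM against 35.7 and 33.3 CPM. Separation of the groups and a small p were conditions for naming these genes, so neither is a further result. Fuz, a planar cell polarity protein of cilia, had 9.26 and 14.2 CPM against 30.2 and 28.4 CPM, and Dexi 12.2 and 15.3 CPM against 45.3 and 28.2 CPM. Myl6, a myosin light chain, had 18.5 and 14.2 CPM against 30.5 and 39 CPM. Tmem102 and G630025P09Rik had the same values, 7.33 and 6.88 CPM against 22.2 and 26.1 CPM, and may share their reads. Mif4gd, Fuz and Dexi each share exons with a neighbouring gene.

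Of 24 ERK-responsive genes tested, 17 were higher in both tumors than in both livers and 1 was lower, beside 20.7% and 22.8% of all genes. The carcinoma alone carried the Hras mutation. The median log2 ratio was 0.96 in mouse L981 and 1.21 in mouse L984. Dusp4 (chromosome 8, 34807297 to 34819894), a phosphatase of ERK in the nucleus, had 16.2 and 17.3 CPM in the tumors and 0.802 and 1.14 CPM in the livers. The carcinoma and the adenoma had about the same level. Dusp5, another nuclear ERK phosphatase, was higher in TCi-HCC981, with 20.1 CPM against 6.37 CPM in TCi-HCA984 and 0.633 and 0.595 CPM in the livers. Dusp6, the cytoplasmic ERK phosphatase, had 120 and 150 CPM against 70.1 and 49.7 CPM. Among the Sprouty and Spred inhibitors, Spry4 had 27.1 and 22.3 CPM against 6.71 and 5.06 CPM. Spred2 had 14.5 and 13.6 CPM against 3.63 and 3.67 CPM, and Spry2 had 2.95 and 5.79 CPM against 1.01 and 0.446 CPM. For each of these inhibitors both tumors lay above both livers, in the adenoma as in the carcinoma. Of the transcription factors that ERK induces, Etv5 had 14.5 and 12.3 CPM against 5.07 and 2.38 CPM. Egr1, the immediate early gene, had 297 and 168 CPM in the tumors, 77 CPM in the liver of mouse L981 and 372 CPM in that of mouse L984, so that its ratio went opposite ways in the 2 mice. Phlda1 was the member that was lower in both tumors, with 44.8 and 70.5 CPM against 98.7 and 105 CPM. In edgeR none of the 24 passed after adjustment and 10 had an unadjusted p under 0.05 (6.42% of all genes), all higher. DESeq2 called 2 (1.96% of all genes), edgeR without the Ctnnb1-mutated tumors 1 (1.13%) and edgeR against all 6 livers 6 (3.08%). Reads of Dusp5, Etv5 and Phlda1 are uncertain because of sequence shared with another gene. Among the genes of the cascade itself, from receptors to ERK, 3 of 18 were higher and 3 lower in both tumors. Mapk3, which encodes ERK1, had 84.6 and 74.2 CPM against 52.9 and 39.4 CPM. Hras had 45.6 and 38.2 CPM in the tumors and 37.6 and 66.3 CPM in the livers, and the mutation is not read from these counts.

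Of 23 pericentral genes tested, 20 were lower in both tumors than in both livers and 2 higher, beside 22.8% and 20.7% of all genes. The median log2 ratio was -2.05 in mouse L981 and -1.23 in mouse L984, and the ratio was lower in mouse L981 for every member except Cyp1a2 and Nr1i3. Glul, glutamine synthetase, had 148 and 444 CPM in the tumors and 1210 and 1150 CPM in the livers. Cyp2e1, the ethanol-metabolizing cytochrome, had 75 CPM in TCi-HCC981, 1890 CPM in TCi-HCA984, and 5070 and 4430 CPM in the livers. Oat, ornithine aminotransferase, had 35.8 and 185 CPM against 1550 and 664 CPM. For all of them the carcinoma was the lowest of the 4 libraries. Slc1a2, a glutamate transporter, had 1.78 and 67.4 CPM against 184 and 165 CPM, and Rgn, regucalcin, had 14 and 170 CPM against 1010 and 545 CPM. The negative feedback genes of Wnt signaling followed, with 2.14 and 4.19 CPM of Axin2 against 12.4 and 11.2 CPM. Nkd1 had 1.07 and 1.38 CPM against 7.01 and 5.2 CPM, and Notum had 9.11 and 13 CPM against 40.9 and 30.3 CPM. Lgr5, the R-spondin receptor, had 0.967 and 5.68 CPM against 11.9 and 14.8 CPM. Rnf43, the ubiquitin ligase that removes Frizzled receptors, had 12.7 and 22.1 CPM against 35.2 and 31.5 CPM. The members above both livers were Tcf7, with 4.43 and 4.01 CPM against 3.42 and 2.97 CPM, and Znrf3, with 12.7 and 13.6 CPM against 12.1 and 12.6 CPM. None of the 23 had an unadjusted p under 0.05. In the p21+/Tert tumors the same genes had a median log2 fold change of 0.77 and spanned a wide range, such as 138 to 10200 CPM for Glul, which enters the spread of the common fit. With only the 4 TertCi libraries, or without the Ctnnb1-mutated tumors, no member passed either. Rspo3, an endothelial ligand that sustains this program, had 0.56 and 3.44 CPM in the tumors and 3.97 and 4.16 CPM in the livers.

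**Figure D2:**
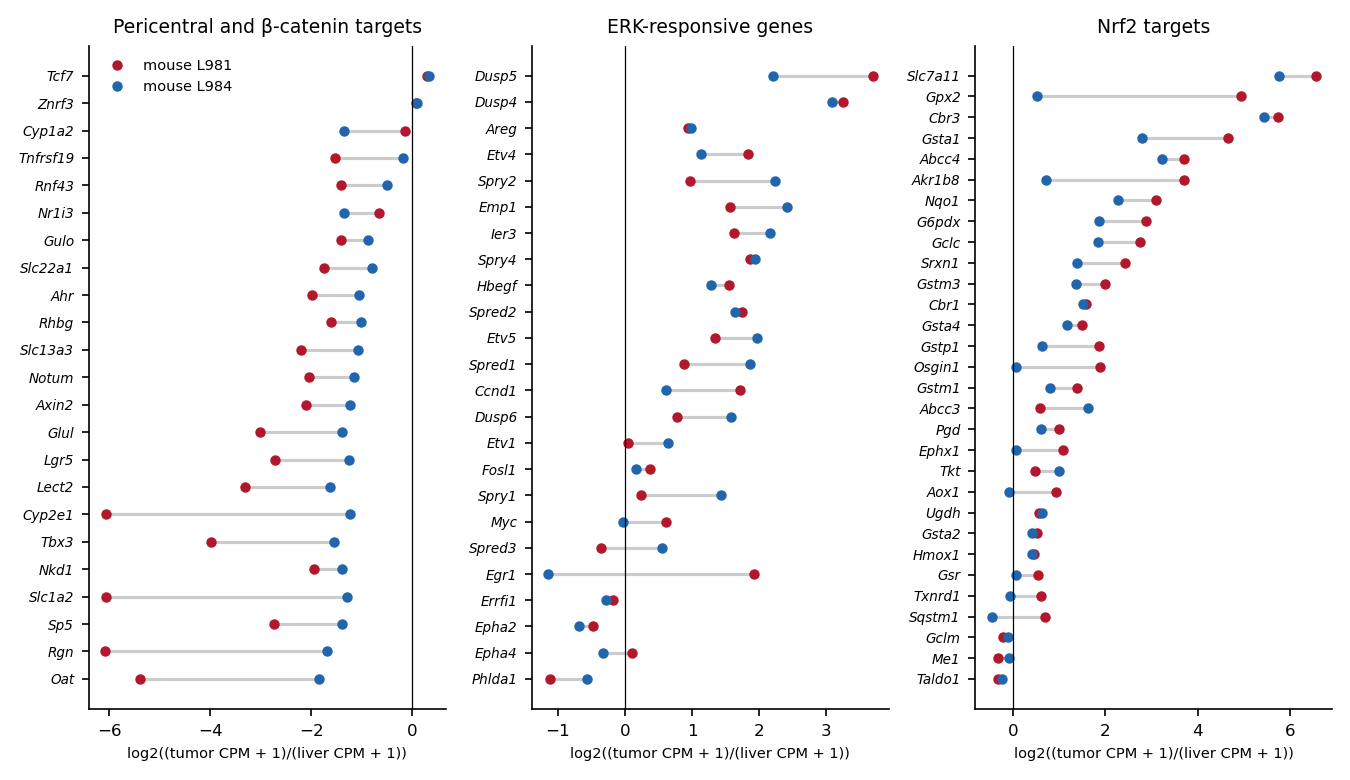
Log2 tumor-to-liver ratio in mouse L981 (red) and mouse L984 (blue) of the members tested of 3 gene lists, each gene on a row of its own and ordered by the fitted log2 fold change. The pericentral genes except Tcf7 and Znrf3 lie left of 0 in both mice with a median of -2.05 in mouse L981 and -1.23 in mouse L984, the ERK-responsive genes lie mostly right of 0 at medians of 0.96 and 1.21, and the Nrf2 targets reach further right in mouse L981.

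Of 30 Nrf2 target genes tested, 14 were higher in both tumors than in both livers and none lower, beside 20.7% and 22.8% of all genes. The median log2 ratio was 1.45 in mouse L981 and 0.68 in mouse L984. The median fitted log2 fold change of 1.3 was 0.22 without TCi-HCC981, 2 without TCi-HCA984, 2.08 without the liver of mouse L981 and 0.71 without that of mouse L984. In edgeR none of the 30 passed after adjustment and 10 had an unadjusted p under 0.05, all higher. DESeq2 called 7, edgeR without the Ctnnb1-mutated tumors 2 and edgeR against all 6 livers 10, beside the shares of all genes given above. The transcript of the factor itself, Nfe2l2, had 77.7 and 112 CPM in the tumors and 105 and 72.8 CPM in the livers, overlapping. The promoters of 25 of the 30 members were found among RefSeq windows (GRCm38.p6) from 250 bases before to 50 bases after the start. A core antioxidant response element, TGACNNNGC on either strand, was found in 8 of the 25 (32%) and in 14% of the windows of 27025 genes, and TGANTCA, the AP-1 site that overlaps with some antioxidant response elements, in 5 of the 25 and in 8.97% of all. The antioxidant response element was about as frequent among the angiogenesis genes, in 6 of 20 promoters, so its share was not particular to the Nrf2 list. A match of letters does not show that the factor binds. Printed here are the 250 bases before the start of 2 members that were higher in both tumors, with every match in capitals. The first is Srxn1, which had 2 matches to the AP-1 site (chromosome 2, 152105274 to 152105523, plus strand), and the other is Abcc4, which had 1 match to the antioxidant response element (chromosome 14, 118706220 to 118706469, minus strand).

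Srxn1: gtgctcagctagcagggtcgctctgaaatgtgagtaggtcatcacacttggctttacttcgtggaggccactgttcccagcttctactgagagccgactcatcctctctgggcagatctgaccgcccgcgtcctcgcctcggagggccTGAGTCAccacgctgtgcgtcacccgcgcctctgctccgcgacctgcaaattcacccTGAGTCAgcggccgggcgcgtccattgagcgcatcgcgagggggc

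Abcc4: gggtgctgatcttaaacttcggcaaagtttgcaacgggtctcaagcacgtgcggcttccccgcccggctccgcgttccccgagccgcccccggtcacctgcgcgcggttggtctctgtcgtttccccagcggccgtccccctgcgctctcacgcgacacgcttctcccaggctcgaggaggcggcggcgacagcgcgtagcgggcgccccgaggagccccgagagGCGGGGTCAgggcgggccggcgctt

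Srxn1, sulfiredoxin, which restores oxidized peroxiredoxins, had 301 and 143 CPM in the tumors and 55 and 54.1 CPM in the livers. Abcc4, an exporter of organic anions, had 119 and 29.5 CPM against 8.27 and 2.28 CPM. Slc7a11, the cystine importer that feeds glutathione synthesis, had 130 and 53.7 CPM against 0.38 and 0 CPM. The livers were thus close to the limit of detection for Slc7a11, whereas both tumors were far above it. Cbr3, a carbonyl reductase, had 167 and 83.6 CPM against 2.15 and 0.942 CPM. Nqo1, a quinone reductase and the most used Nrf2 readout, had 223 and 53.9 CPM against 24.9 and 10.3 CPM. Gclc, the catalytic subunit of the enzyme that limits glutathione synthesis, had 2080 and 632 CPM against 308 and 175 CPM. Its partner Gclm did not share this, with 144 and 207 CPM against 167 and 223 CPM. Akr1b8, an aldose reductase, had 43.5 CPM in TCi-HCC981, 4.3 CPM in TCi-HCA984, and 2.41 and 2.23 CPM in the livers. Gpx2, a glutathione peroxidase, had 33.5 CPM in the carcinoma but 0.574 CPM in the adenoma, with 0.127 and 0.0991 CPM in the livers. Members below or near their livers included Taldo1, with 139 and 110 CPM against 175 and 130 CPM, and Me1, with 45 and 66.9 CPM against 55.9 and 70.6 CPM. Parts of Akr1b8, Gpx2 and Me1 match another gene, and their reads are uncertain. Glutathione transferases of the Gsta and Gstm families share sequence, and their counts are uncertain.

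The oncofetal list, of which Scd2 and Lcn2 are also in the lipid and acute phase lists, had the highest median. Of 19 tested, 12 were higher in both tumors than in both livers and 1 lower, beside 20.7% and 22.8% of all genes. The median log2 ratio was 3.17 in mouse L981 and 1.69 in mouse L984. Besides Gpc3, Afp, the fetal serum protein α-fetoprotein, had 52.4 and 29.1 CPM in the tumors and 4.52 and 6.69 CPM in the livers. Tspan8, a tetraspanin, had 219 and 51.2 CPM against 0.929 and 0.545 CPM. Bex1 had 18.4 and 8.03 CPM against 0.0422 and 0 CPM. Prom1, which encodes the progenitor marker CD133, had 37.4 and 11.9 CPM against 2.07 and 1.29 CPM, and Golm1, a Golgi membrane protein, had 73.5 and 65.5 CPM against 9.37 and 11.9 CPM. H19, an imprinted noncoding RNA of fetal tissues, stood apart in the carcinoma, with 1300 CPM in TCi-HCC981, 7.8 CPM in TCi-HCA984, and 0.0844 and 0.297 CPM in the livers. Igf2, the growth factor gene beside it, had 22.1 and 1.09 CPM against 0.295 and 0.198 CPM. Mir675 lies inside an exon of H19, so its counts in these libraries are reads of that exon and are not a level of the miRNA. Spink1, a protease inhibitor, was the reverse, with 1.17 CPM in the carcinoma, 36.6 CPM in the adenoma and at most 0.149 CPM in the livers. Igf2bp1 and Lin28b had no read in the 4 libraries, and Sall4 at most 0.0574 CPM. Peg3 was the member that was lower in both, with 1.43 and 16.3 CPM against 26.4 and 17.2 CPM. In edgeR none of the 19 passed after adjustment and 11 had an unadjusted p under 0.05 (6.42% of all genes), all higher. DESeq2 called 5 (1.96% of all genes), edgeR without the Ctnnb1-mutated tumors 6 (1.13%) and edgeR against all 6 livers 10 (3.08%). Reads of Bex1, Golm1, H19, Igf2 and Sall4 are uncertain because of sequence shared with another gene.

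Angiogenesis genes were higher in both tumors in 18 of 24 and lower in none, beside 20.7% and 22.8% of all genes. The median log2 ratio was 0.82 in mouse L981 and 1.1 in mouse L984. Esm1, a proteoglycan of endothelial tip cells, had 70.5 and 46 CPM in the tumors and 0.253 and 0.942 CPM in the livers. Apln, the apelin gene of sprouting endothelium, had 4.73 and 16.6 CPM against 0 and 0.0991 CPM. Angpt2, the ligand that destabilizes vessels, had 10.7 and 5.45 CPM against 0.38 and 0.297 CPM. Each of these is best known from endothelial cells, and which cells the reads came from was not tested. Flt4, a receptor of Vegfc, had 117 and 109 CPM against 14.3 and 11.5 CPM, and Pdgfb, which recruits pericytes, had 23.2 and 14.6 CPM against 4.09 and 1.49 CPM. Vegfa, the ligand most studied in tumors, overlapped, with 171 and 240 CPM in the tumors and 277 and 205 CPM in the livers. Of the 10 vascular endothelial markers, 5 were higher in both tumors than in both livers, beside 20.7% of all genes. In 1, Rspo3, both tumors lay below both livers, beside 22.8% of all genes. Among those higher, Emcn had 8.96 and 9.75 CPM against 0.633 and 0.942 CPM. Cd34, a marker of capillarized vessels, had 13.8 and 19 CPM against 1.6 and 0.942 CPM, and Pecam1 had 43.2 and 41.4 CPM against 13.2 and 13.7 CPM. The 10 vascular markers together summed to 436 and 243 CPM in the tumors and 280 and 84.9 CPM in the livers, and the 10 sinusoidal markers to 499 and 237 CPM against 231 and 200 CPM. Both sums were higher in tumor than in liver within each mouse, and their part in the angiogenesis result was not tested.

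Of 33 genes of wound healing and matrix remodelling, 15 were higher in both tumors and 2 lower, beside 20.7% and 22.8% of all genes. The median log2 ratio was 1 in mouse L981 and 1.09 in mouse L984. Itga6, an integrin subunit, had 47.6 and 34.5 CPM in the tumors and 4.09 and 2.92 CPM in the livers. Tgfa, a ligand of the EGF receptor, had 38.1 and 49.5 CPM against 16.9 and 19.2 CPM, and Tgfb2 had 7.43 and 6.08 CPM against 0.929 and 0.198 CPM. F2r, the thrombin receptor, had 60.9 and 90.4 CPM against 12.3 and 18.1 CPM. Timp3, an inhibitor of matrix proteases, had 62.5 and 50.8 CPM against 12.2 and 12.6 CPM. All of these had tumors of like level in the carcinoma and the adenoma. Cyr61, a target of YAP, was lower in both tumors, with 8.24 and 10.8 CPM against 43.4 and 21.9 CPM. Col1a1, a chain of type I collagen, is not in this list but among 14 stellate cell and fibroblast markers. Of these 14, 5 were higher in both tumors and 1 lower, beside 20.7% and 22.8% of all genes. The 14 summed to 304 and 287 CPM in the tumors and 328 and 130 CPM in the livers. Col1a1 itself had 20.7 and 32 CPM in the tumors and 17.9 and 5.6 CPM in the livers. Both tumors lay above both livers, but TCi-HCC981 only slightly above the liver of its own mouse.

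Of 18 genes with higher expression in male than in female mouse liver, 11 were lower in both tumors than in both livers and 1 higher. All genes gave 22.8% and 20.7%. The median log2 ratio of the list was -2.66 in mouse L981 and -1.21 in mouse L984. The median fitted log2 fold change of -1.68 ran from -3.14 to -1 over the other fits. Cyp7b1, an oxysterol hydroxylase, had 14.9 and 29.7 CPM in the tumors and 147 and 76.4 CPM in the livers. Nudt7, a peroxisomal hydrolase of coenzyme A, had 34 and 91.9 CPM against 284 and 238 CPM. Elovl3, a fatty acid elongase, had 0.204 and 4.47 CPM against 13.5 and 16.2 CPM. These livers were themselves low for Elovl3, since the 4 livers of p21+/Tert mice had between 137 and 657 CPM. Slco1a1 showed the same, with 16.7 and 10.6 CPM in the TertCi livers against 63.1 to 338 CPM. The female-biased genes had a median log2 fold change of 0.25, which ran from -1.27 to 1.16 over the other fits, so its sign was not kept. Abcd2, a peroxisomal transporter, had 218 and 135 CPM against 14.4 and 24.1 CPM and went with Cyp2a4, whereas Ntrk2 had 0.967 and 6.31 CPM against 53.1 and 18.5 CPM.

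Bile acid and xenobiotic genes were lower in both tumors in 11 of 20 and higher in 1, beside 22.8% and 20.7% of all genes. Cyp3a11, the main inducible drug-metabolizing cytochrome of mouse liver, had 41 and 141 CPM in the tumors and 2190 and 304 CPM in the livers. The p21+/Tert tumors had between 1730 and 3030 CPM of it. Abcb11, the bile salt export pump, had 176 and 141 CPM against 494 and 277 CPM. Slc10a1, the importer of bile acids, had 60.1 and 229 CPM against 374 and 407 CPM. Abcc2, an exporter of conjugated bilirubin, was the member above both livers, with 650 and 398 CPM against 198 and 300 CPM. Among periportal genes, Ass1 had 29.3 and 68.4 CPM against 346 and 91.4 CPM. Asl, the next enzyme of the urea cycle, had 114 and 181 CPM against 597 and 268 CPM. Igf1, the growth factor secreted by hepatocytes, had 110 and 311 CPM against 951 and 761 CPM. Of the 19 periportal genes, 6 were lower in both tumors and 2 higher, against 22.8% and 20.7% of all genes, and their median log2 ratio was -1.16 in mouse L981 and -0.14 in mouse L984. Of 12 genes of gluconeogenesis and liver glycolytic isozymes, 1 was higher in both tumors and 2 lower, beside 20.7% and 22.8% of all genes. A log2 fold change below 0 was found in 10, and Pck2 was above 0 at 1.37. The median was -0.48, and 0.11 without TCi-HCC981. Fbp1, which catalyses a late step of gluconeogenesis, had 306 and 958 CPM in the tumors and 712 and 1080 CPM in the livers. G6pc, glucose-6-phosphatase, had 152 and 157 CPM against 508 and 434 CPM. Of 21 glycolysis genes, 7 were higher in both tumors (20.7% of all genes) and none lower (22.8%). Gpi1 was among the 7, with 170 and 288 CPM against 111 and 105 CPM. In the lipid list Scd2, a stearoyl-CoA desaturase, had 386 and 153 CPM against 21.7 and 3.37 CPM, and Plin3, a coat protein of lipid droplets, had 73.9 and 75 CPM against 41.5 and 41.2 CPM. The list as a whole had 7 of 29 members higher and 7 lower in both tumors, near the shares of all genes. Reads of Ass1, Elovl3, Gpi1 and Scd2 are uncertain because of sequence shared with another gene.

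**Figure D3:**
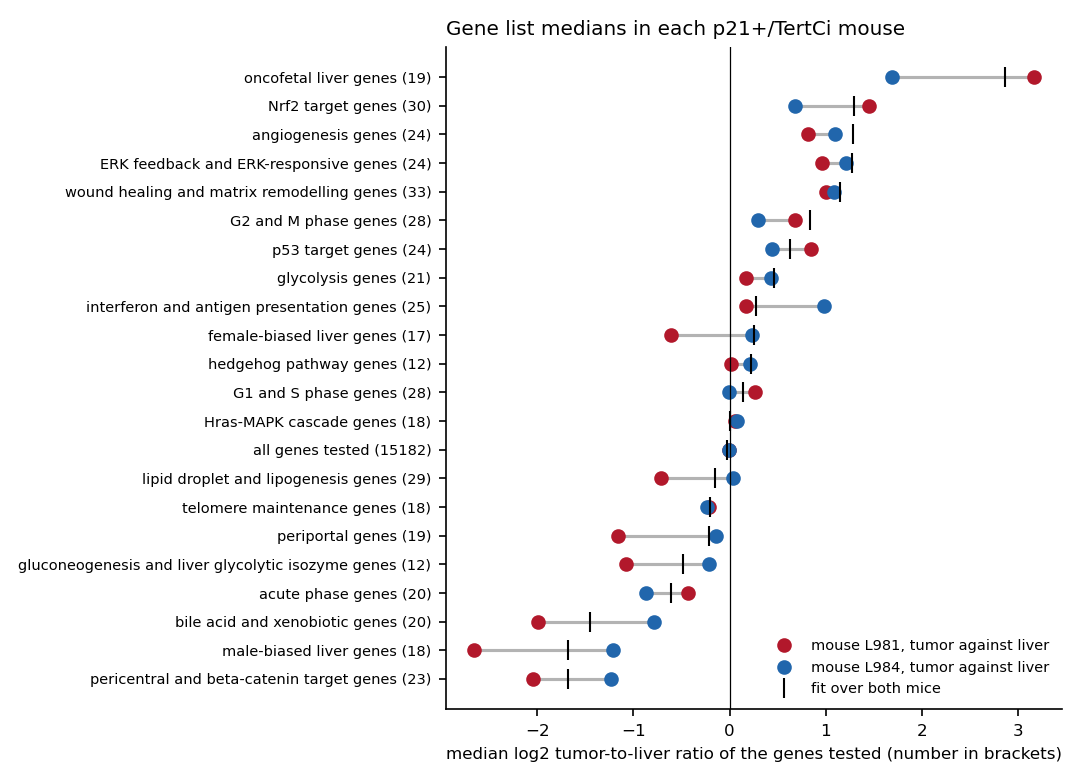
Median log2 tumor-to-liver ratio of the genes tested of each list in mouse L981 (red) and mouse L984 (blue), with the median fitted log2 fold change as a black tick and the number of genes in brackets. Oncofetal, Nrf2, angiogenesis, ERK-responsive and wound healing genes lie right of 0 in both mice, and pericentral, male-biased and bile acid genes lie left of 0 in both, further in mouse L981.

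Most G2 and M phase genes did not separate the groups. Of 28 tested, 26 had a log2 fold change above 0, as had 48.1% of all genes tested. In 2 alone did both tumors lie above both livers (20.7% of all genes), and in none below (22.8%). Ect2, a regulator of cytokinesis, had 3.97 and 1.72 CPM in the tumors and 1.06 and 1.24 CPM in the livers, and Aurka 7.43 and 6.14 CPM against 4.98 and 3.57 CPM. Prc1, which bundles the spindle midzone, had 7.13 and 1.55 CPM in the tumors, and the liver of mouse L981 with 2.58 CPM lay above TCi-HCA984. The liver of mouse L981 was above that of mouse L984 for each of Cdk1, Ccnb1, Ccnb2 and Prc1. The median log2 fold change was 0.84 and lay between 0.86 and 1.14 in the other fits that kept all 4 TertCi libraries. It was -0.73 without TCi-HCC981 and 2.65 without the liver of mouse L981. Its direction was thus not kept when 1 library was left out. In p21+/Tert tumors the median was 3.29. Among 28 G1 and S phase genes, 6 were higher in both tumors and 3 lower, beside 20.7% and 22.8% of all genes. Their median log2 fold change was 0.14. In the other fits it lay between -0.33, without TCi-HCC981, and 0.52, without TCi-HCA984. Ccnd1, cyclin D1, had a log2 fold change of 1.21, from 0.87 to 1.48 over the fits, and Mcm10 had -1.78, from -3.04 to -1.12. Reads of Ccnd1 are uncertain because of sequence shared with another gene. Of 18 telomere maintenance genes, Tert and Dkc1 were higher in both tumors and 5 were lower, where all genes gave 20.7% and 22.8%. Acd, which encodes the shelterin protein TPP1, had 12 and 14.9 CPM against 19.5 and 20.5 CPM, and Wrap53, which brings telomerase to Cajal bodies, had 7.07 and 8.77 CPM against 12.5 and 13.3 CPM. Hedgehog genes had 4 members higher and 4 lower in both tumors of 12 tested, beside 20.7% and 22.8% of all genes. Gas1, a co-receptor of hedgehog ligands, had 0.254 and 3.84 CPM against 34.4 and 8.82 CPM. Hhip had 0 and 0.401 CPM against 0.76 and 1.39 CPM.

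Immune genes differed between the mice. Cd74, the invariant chain of MHC class II, had 905 CPM in TCi-HCC981 and 827 CPM in its liver, and 119 CPM in TCi-HCA984 and 17.7 CPM in its liver. H2-Aa had 390 and 385 CPM in mouse L981 and 48.5 and 5.85 CPM in mouse L984, tumor before liver. The log2 ratio of H2-Aa was 0.02 in mouse L981 and 2.85 in mouse L984, whose liver had the lowest level. Of 25 interferon and antigen presentation genes, 1 was higher in both tumors than in both livers (20.7% of all genes). That was Rsad2, an antiviral protein, with 38.9 and 14.2 CPM against 12.5 and 6.19 CPM. Of the 10 Kupffer cell markers, 2 were lower in both tumors than in both livers (22.8% of all genes) and none higher. Marco, a scavenger receptor of Kupffer cells, had 0.458 and 2.64 CPM in the tumors and 37.3 and 11.3 CPM in the livers, and Timd4, a marker of resident Kupffer cells, had 2.29 and 1.09 CPM against 22.5 and 2.43 CPM. Clec4f, another marker of resident cells, had 162 and 24.5 CPM against 442 and 42.2 CPM, lower in each tumor than in its liver. Of 12 markers of recruited macrophages and monocytes, 4 were higher in both tumors than in both livers (20.7% of all genes) and none lower. Their sum was 794 and 263 CPM in the tumors. Gpnmb had 20.9 and 9.86 CPM against 1.22 and 1.14 CPM, and Mmp12 had 35.9 and 8.09 CPM against 2.32 and 0.595 CPM. Trem2, another of these markers, had 5.9 and 2.7 CPM against 2.36 and 1.34 CPM. T cell markers were low in mouse L984, with 0.516 CPM of Cd3e in the tumor and 0.198 CPM in the liver, against 2.54 and 2.07 CPM in mouse L981. The sign of the median log2 fold change was not kept over the fits for the Kupffer cell (-2.96 to 1.64), recruited macrophage and monocyte (-0.78 to 2.47), T and NK cell (-1.94 to 2.91) and interferon lists (-1.27 to 2.19). These ranges include the fits in which 1 TertCi library was left out.

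The carcinoma and the adenoma were then compared by the ratio of each tumor to its own liver. The ratio of mouse L981 exceeded that of mouse L984 by at least 4-fold in 194 genes (1.28%) and fell short of it by at least 4-fold in 220 (1.45%). With 1 tumor and 1 liver per mouse these differences have no replicate. At 2-fold, TCi-HCC981 was above its liver in 1495 genes and below it in 1239, and TCi-HCA984 in 1206 and 517. Only 21 genes were 2-fold higher in mouse L981 and 2-fold lower in mouse L984, and 21 the reverse. Beside H19, the ratio was most in favour of the carcinoma for Inhbb, a subunit of activin, with 159 and 18.1 CPM in the tumors and 0.338 and 5.45 CPM in the livers. Wfdc15b had 285 and 6.08 CPM against 0.971 and 0.0496 CPM. Asns, asparagine synthetase, had 103 and 39.8 CPM in the tumors but 0.211 CPM in the liver of mouse L981 and 15.4 CPM in that of mouse L984, so part of its gap came from the livers. On the opposite side were hepatocyte enzymes and secreted proteins whose level was low in TCi-HCC981 and closer to the liver in TCi-HCA984. Mup3, a major urinary protein, had 11.2 CPM in TCi-HCC981, 1140 CPM in TCi-HCA984, and 2920 and 3020 CPM in the livers. Cyp7a1, the rate-limiting enzyme of bile acid synthesis, had 0.153 and 142 CPM against 138 and 273 CPM. Cyp4a14, a fatty acid hydroxylase induced by PPARα, had 0.356 and 265 CPM against 254 and 711 CPM. For Cyp2c69 the livers differed widely, since that of mouse L981 had 303 CPM and that of mouse L984 had 5.06 CPM. Its reads can be shared with Cyp2c40, Cyp2c67 and Cyp2c68. Spp1, osteopontin, had 4.12 CPM in TCi-HCC981, 263 CPM in TCi-HCA984, and 113 and 99.9 CPM in the livers. Sox9, a progenitor and biliary factor, had 55.8 and 21.9 CPM in the tumors and 14.8 and 10.4 CPM in the livers, while the biliary keratins Krt7 and Krt19 were at most 0.746 CPM in the tumors.

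**Figure D4:**
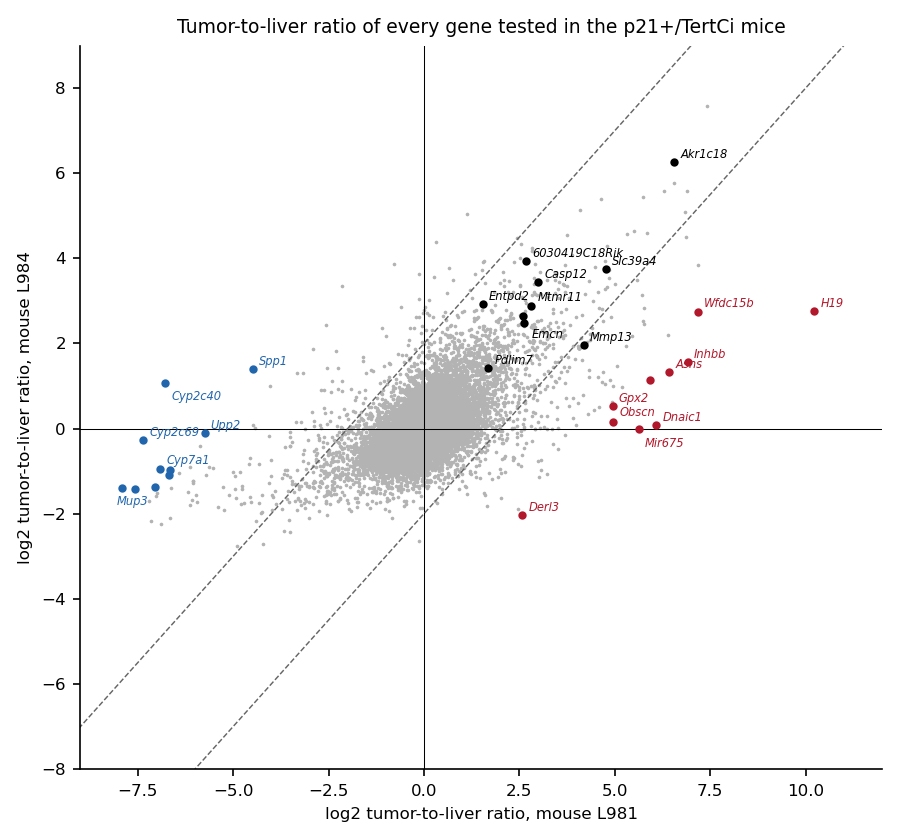
Log2 tumor-to-liver ratio of each of the 15182 genes tested in mouse L981 (horizontal) and mouse L984 (vertical), with dashed lines where the mice differ by 4-fold. Black points are the 10 genes higher in both tumors with the smallest p, red and blue points the 10 genes most in favour of mouse L981 and of mouse L984. H19 lies farthest to the right at 10.23, and Mup3 farthest to the left among the labelled genes.

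Expression was also summed up by chromosome, since the study also examined copy number in the tumors. The median log2 ratio of the genes of a chromosome, relative to all autosomal genes, was 0.45 for the 773 genes of chromosome 1 in mouse L981, 0.4 for the 543 genes of chromosome 15 and 0.35 for the 355 genes of chromosome 18. It was 0.25 for chromosome X, 0.12 for chromosome 9, -0.2 for chromosome 8, -0.15 for chromosome 5, -0.14 for chromosomes 4 and 10 and -0.12 for chromosome 13. Each liver against the other 5 gave between -0.09 and 0.08 over all chromosomes. A tumor was set against 1 liver but a liver against a mean of 5, so this range is not a like background. Further medians lay outside the livers' range for their own chromosome. Examples are chromosome 2 in mouse L981 (-0.09, livers -0.01 to 0.01) and chromosome 7 in mouse L984 (-0.08, livers -0.03 to 0.02). In mouse L984 the medians of chromosomes 15 and 18 were 0.17 and 0.15, also above the range of the livers, that of chromosome X was 0.1, that of chromosome 3 was 0.09 and that of chromosome 1 was 0.06. On chromosome 1, 77.5% of the genes lay above the autosomal median in mouse L981 and 56.1% in mouse L984. In the 4 p21+/Tert tumors the median of chromosome 15 lay between 0.07 and 0.5. These are medians of expression and do not measure DNA copies.

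**Figure D5:**
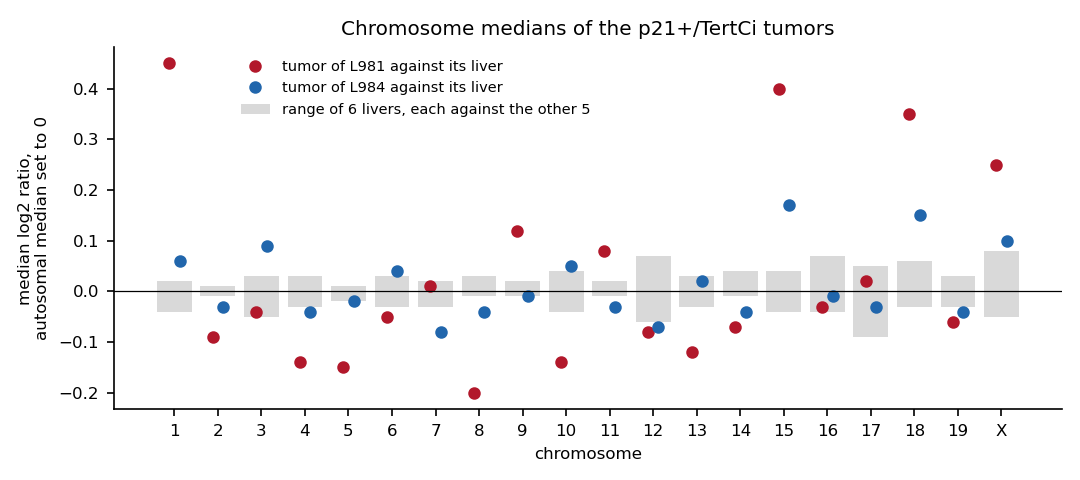
Median log2 tumor-to-liver ratio of the genes of each chromosome, with the median of all autosomal genes set to 0, for mouse L981 (red) and mouse L984 (blue); grey bars span the 6 livers of the series, each against the other 5. Chromosomes 1, 15 and 18 of mouse L981 stand at 0.45, 0.4 and 0.35, and chromosomes 15 and 18 of mouse L984 at 0.17 and 0.15.

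Against the p21+/Tert tumors, no gene passed the test of the difference between genotypes in edgeR (0.0% of 15182), whose lowest adjusted p was 0.414. At an unadjusted p under 0.05 there were 556 genes (3.66%), and DESeq2 called 3 higher and 2 lower. The 2 genotypes have separate livers as controls, and the test compares 2 tumors with 4. For the G2 and M phase genes 11 of 28 had an unadjusted p under 0.05 in this test, for the male-biased genes 6 of 18, and for the ERK-responsive genes 1 of 24.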

How the data were processed

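Poly(A) RNA of bulk tissue was sequenced as paired ends. The authors aligned the reads to mm10 with an added mCherry sequence and deposited raw counts per gene, and the submitters' processing notes name Subread, SAMtools and featureCounts 1.6.4. Whether a sample was a tumor or a liver was read from its title. Each group of 2 holds samples of 2 mice.

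From the deposited counts, CPM scaled by the trimmed mean of M-values were computed. The main test was edgeR 4.0.16 (R 4.3.3), a quasi-likelihood fit of 12 libraries in 4 groups with 8 residual degrees of freedom, after filterByExpr kept 15182 of 24421 genes, and p-values adjusted by Benjamini-Hochberg were called at 0.05. DESeq2 1.42.0 was an alternative. The sequencing run of each sample was not given in the sources used here, so the authors' correction for it was not repeated. The scripts were tested on simulated data.

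The members and gene lists were chosen with earlier results of these data known. Named by rule were Tert and Cdkn1a, the 10 genes higher and the 10 lower with the smallest p among those whose groups did not overlap and whose higher group had a mean of at least 5 CPM, up to 4 genes of each list with the smallest p, the 10 genes at each end of the difference between the mice, genes the study names, and the 5 genes in each direction with the smallest p in the blocked fit. Further list members were named after their values were seen, to show their range. Tumor and liver share a mouse by their numbers, and their deviations from the group means correlated at 0.532 over 15182 genes. In p21+/Tert mice the same correlation was 0.0479 for mouse 663, 0.0397 for mouse 941 and 0.424 for mouse 992. Genes of the lists and those named by rule were searched for transcripts that match another gene at 95% or more over at least 100 bases (minimap2) or share exons with it. Of the genes printed, matches were also found for Acd, Ccnb1, Cd34, Cd74, Cyp2c40, Glul, Igf2bp1, Itga6, Mmp12, Notum, Nr1i3, Prc1, Rspo3, Saa1, Spp1, Timp3 and Xist, whose reads are uncertain too. Gene positions are from GENCODE on GRCm38, matched for 23376 of 24421 genes. A result on 1 gene is not reported here.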

Additional observations from a re-analysis of the deposited data

Results flagged for a closer look

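For 6 of the 191 named genes tested (3.14%) both TertCi tumors differed from the mean of the TertCi livers one way and all 4 p21+/Tert tumors differed from the mean of their livers the opposite way. Of all 15182 genes tested, 494 met the same description (3.25%), a share near that of the named genes. None of the 6 passed the test of the difference between genotypes in edgeR (adjusted p of 1.0 for each). The difference of the log2 fold changes, TertCi minus Tert, was 1.16 for Abcc2, the exporter of conjugated bilirubin, with 1.08 in TertCi and -0.08 in Tert. It was 4.11 for Jchain, the joining chain of secreted antibodies, with 1.72 and -2.38. S100a8, a neutrophil and monocyte protein, had 1.87, from 0.67 and -1.2. Hras had -0.6, from -0.31 and 0.29. Ddx3y had 0.54, from 0.14 and -0.4. Ten1, a telomere capping protein, had -2.38, from -0.3 and 2.08, and its reads are uncertain.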

How the results depend on the processing

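The number of genes called in TertCi tumors against their livers depended on the fit. It was 0 in both directions in the edgeR fit reported. With RLE size factors it was 1 higher, and with every gene of at least 1 count 2 higher. DESeq2 called 296 higher and 65 lower. Without the Ctnnb1-mutated tumors edgeR called 172 higher and 14 lower, and against all 6 livers 467 higher and 118 lower. Each of the 4 TertCi libraries was also left out in turn, which leaves 1 library in its group, so no calls are given for those fits. Their log2 fold changes and list medians are part of the ranges given over the other fits. No p21+/Tert library was left out singly. With the mouse as a replicate block, which leaves out T-HCC662 and the liver titled p_961, 0 genes were higher and 0 lower. At an unadjusted p under 0.05 in edgeR, that fit had 1213 higher and 1043 lower, against 974 and 644 in the main fit. It has 3 residual degrees of freedom against 8 and fewer libraries, so it does not isolate the effect of pairing. The column of the liver titled p_961 carries the number of T-HCC662 and its title does not, so whether the pair belongs together was not tested. For the difference between genotypes DESeq2 called 3 and 2 genes, and edgeR 0 and 0 with the replicate block. With a pseudocount of 0.1 CPM, 473 genes had a ratio at least 4-fold higher in mouse L981 and 656 in mouse L984. For TCi-HCC981 the median of chromosome 1 was 0.47 both with genes of at least 10 CPM and against the mean of the 6 livers, and that of chromosome 15 was 0.47 and 0.44. For TCi-HCA984 chromosome 15 gave 0.14 and 0.09, and chromosome 18 gave 0.23 against the 6 livers. The cause of these differences was not tested. Of 34 gene lists, 17 kept the sign of their median in every fit, and of 191 named genes 153 did. The fits counted here include those in which 1 TertCi library was left out. With 2 tumors of different histology, a difference between mice has no replicate.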
